A study of Mus musculus with 2 samples.

Results

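Genes of sterol synthesis, uptake and efflux were examined in mice without apolipoprotein E, in a subcutaneous fat pad of the groin (inguinal white adipose tissue). The set was listed by function and holds 34 genes, of which 31 were measured under their own symbol among 19938 named genes. For Acat2, Soat1 and Nr1h2 no probe set carried that symbol, alone or with others, in the annotation used here, so no value is given for them. All animals were male C57BL/6J mice kept at 23 °C that lacked ApoE, the lipoprotein ligand whose loss raises blood cholesterol, and all were moved at 9 weeks of age to a high-fat diet, which they ate for 9 weeks. The ApoE-KO group (ApoE-/-) had no other named allele. The DKO group (Ucp1-/-;ApoE-/-) also lacked uncoupling protein 1 (UCP1), the mitochondrial protein with which brown and beige adipocytes make heat. No tissue-restricted driver is named in the labels, so neither loss is described as limited to fat. RNA of 3 mice was pooled for each genotype and put on 1 Affymetrix whole-transcript array, which gave 2 arrays in all. The spread between mice was not measured, no p-value is given, and every difference below is between 2 pools.

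Cells obtain cholesterol by making it from acetyl-CoA, in a long series of steps through mevalonate, squalene and lanosterol, or by taking up lipoproteins. When sterol in the endoplasmic reticulum is scarce, the escort protein SCAP carries SREBP2 to the Golgi for cleavage, and its released part switches on the synthesis genes, whereas INSIG proteins hold the complex back when sterol is plentiful. Liver X receptors (LXR) sense oxysterols and switch on the efflux pumps ABCA1 and ABCG1. Fat cells hold a large store of free cholesterol, much of it at the lipid droplet, and obtain it largely from lipoproteins.

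Values are deposited linear intensities, 1 per probe set and array, and a difference is the log2 intensity of the array labelled DKO minus that of the array labelled ApoE-KO. Median intensities over all probe sets were 152.1 and 157.65. An expression floor was set at an intensity of 196.9, the midpoint of named probe sets by mean log2 value over both arrays, as a rule and not a detection limit. Differences of the middle 90% of the 9891 genes on or above it lay between -0.52 and 0.76. Ucp1 read 2229.9 for the DKO label and 219 for the ApoE-KO label, which goes against the label if its probe set lies in the deleted part of the gene. The sources used here do not give the position of these probes, so arrays are named by their labels and every direction rests on them. Apoe, disrupted in both groups, read 502 and 589, above the floor on both arrays, which likewise goes against both labels if its probe set lies in the deleted part. Of 9 measured markers of mature adipocytes, all read at least 1338 in either array, with differences between -0.12 and 0.47. Skeletal muscle transcripts marked the array labelled ApoE-KO. All 12 muscle markers were lower in the array labelled DKO, 10 of them read below the floor there, and their summed intensity was 1820 against 34477. Their part in the results below was not tested.

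Genes that make sterol were higher in the array labelled DKO almost throughout, whereas genes of uptake, control and efflux pointed in different directions. Of the 17 measured synthesis genes, 16 were higher and Mvk was level at -0.04, with a median difference of 0.48 (all named genes -0.01, of which 46.4% were higher). Of the 14 measured genes outside synthesis, 8 were higher and 6 lower, with a median of 0.14. The differences were modest in size. At least 1.5-fold higher were 7 of the 31 measured genes, namely Pmvk, Fdps, Lss, Cyp51, Nsdhl, Hsd17b7 and Vldlr, where the same rule took 4.44% of all named genes. Nsdhl was the 1 gene past 2-fold (1.51% of all named genes were at least 2-fold higher), and 0 genes were at least 1.5-fold lower (2.53% of all named genes were). Likewise 0 were at least 2-fold lower, against 0.527% of all named genes. On or above the floor the background shares were 7.57% (1.5-fold higher), 2.79% (2-fold higher), 3.73% (1.5-fold lower) and 0.698% (2-fold lower), and 48.2% of those genes were higher by any amount.

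**Figure D1:**
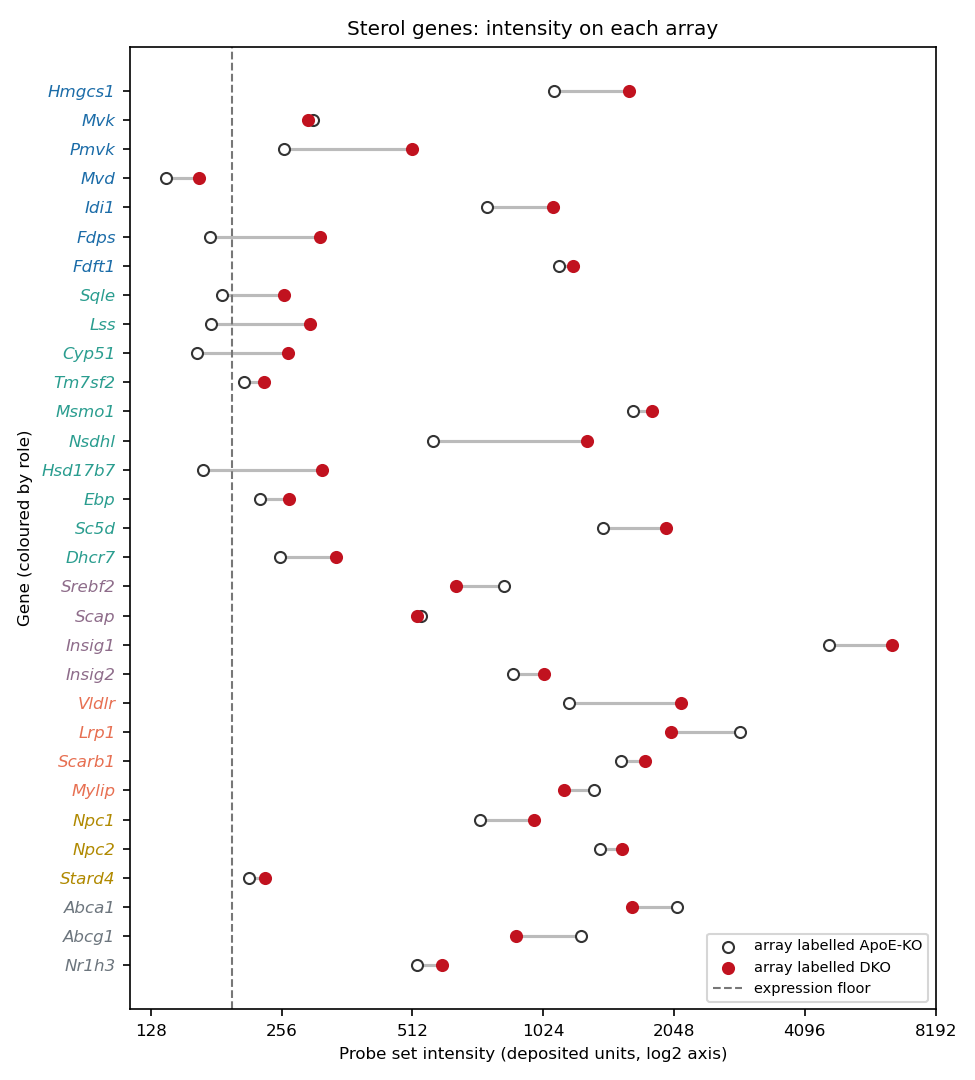
Intensity of each measured sterol gene on the array labelled ApoE-KO (open) and on the array labelled DKO (red), on a log2 axis, with gene names coloured by role and the floor of 196.9 dashed. Distances between the points of a gene can be read, but levels of different genes cannot be ranked. Of the synthesis genes from Hmgcs1 to Dhcr7, 16 of 17 have the red point to the right.

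Low signal limits some of these values. The mean of 30 of the 31 genes lay on or above the floor, and Mvd lay below it on both arrays. Fdps, Sqle, Lss, Cyp51 and Hsd17b7 read below the floor on the array labelled ApoE-KO, so they reached it through the array where they were higher. These 5 genes hold 4 of the 7 that passed 1.5-fold, and the other 3 (Pmvk, Nsdhl and Vldlr) lay above the floor on both arrays. With every low intensity raised to the floor, Cyp51 came to 0.43 and no longer passed 1.5-fold.

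The first segment of synthesis runs from acetyl-CoA to squalene, and 6 of its 7 measured genes were higher for the DKO label. The median was 0.51. Pmvk, the kinase that makes mevalonate diphosphate, read 512 with the DKO label and 259.5 with the ApoE-KO label, the order in which all pairs of intensities below are given. Its difference of 0.98, or 1.97-fold, was the largest of the segment and just short of 2-fold. Fdps, which joins isoprene units into farnesyl diphosphate, the branch point to sterols and prenylated proteins, read 313 and 175 (0.84, or 0.67 once the lower value is raised to the floor). Hmgcs1, the cytosolic HMG-CoA synthase at the entry of the mevalonate pathway, read 1613 and 1085, and its 1.49-fold difference (0.57) stood just below 1.5-fold. Both probe sets of Idi1, the isomerase of isopentenyl diphosphate, gave close values, with 1078 and 759 on the brighter (0.51) and 1023 and 684 on the other (0.58).

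The remaining 3 genes of this segment differed little. Fdft1, squalene synthase, commits farnesyl diphosphate to sterols. Its brighter probe set read 1201 and 1112 (0.11), while its second read 748 and 543 (0.46), so the size for this gene depends on the probe set and the direction does not. Mvd, the decarboxylase that yields isopentenyl diphosphate, read 165 and 139 (0.25), with both values below the floor. Mvk, mevalonate kinase, read 294 and 302 and was the synthesis gene that was not higher. Thus neighbouring steps did not share 1 size of difference, with Mvk at -0.04 directly before Pmvk at 0.98.

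The second segment converts squalene to cholesterol, and all 10 of its measured genes were higher in the array labelled DKO, with differences from 0.15 to 1.18 and a median of 0.48. Nsdhl, the sterol dehydrogenase that removes methyl groups from lanosterol-derived intermediates and can sit on lipid droplets, read 1292 and 571. This 2.26-fold difference (1.18) was the largest of the 31 genes and clear of the floor on both arrays. Hsd17b7, the keto-reductase that acts directly after Nsdhl in the same demethylation complex, read 316 and 168 (0.91, or 0.68 with the floor). Msmo1, the methyl oxidase that acts directly before Nsdhl, read 1825 and 1650, a difference of 0.15. The 3 enzymes of this demethylation thus ranged from 1.11-fold to 2.26-fold.

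Enzymes upstream of demethylation lay between these values. Sqle, squalene epoxidase, which brings the first oxygen into the sterol and is a slow step of the pathway, read 260.0 and 187 (0.48, or 0.40 with the floor). Lss, lanosterol synthase, closes the rings. It read 298 and 176 (0.76, or 0.60 with the floor). Cyp51, the cytochrome P450 that removes the first methyl group of lanosterol, read 264 and 164 (0.69). All 3 lay below the floor on the array labelled ApoE-KO, and Cyp51 differed by 0.43 with that value raised to the floor. Tm7sf2, a sterol reductase that acts after Cyp51, read 233 and 209 (0.16).

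Late steps also differed unevenly. Sc5d, the sterol desaturase that makes the precursor of both cholesterol and vitamin D, read 1967 and 1406 (0.48). Dhcr7, the reductase that takes that precursor to cholesterol, read 342 and 255 (0.43). Ebp, the sterol isomerase before them, read 266 and 229 (0.22). None of these 3 reached 1.5-fold, and all were above the floor on both arrays.

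**Figure D2:**
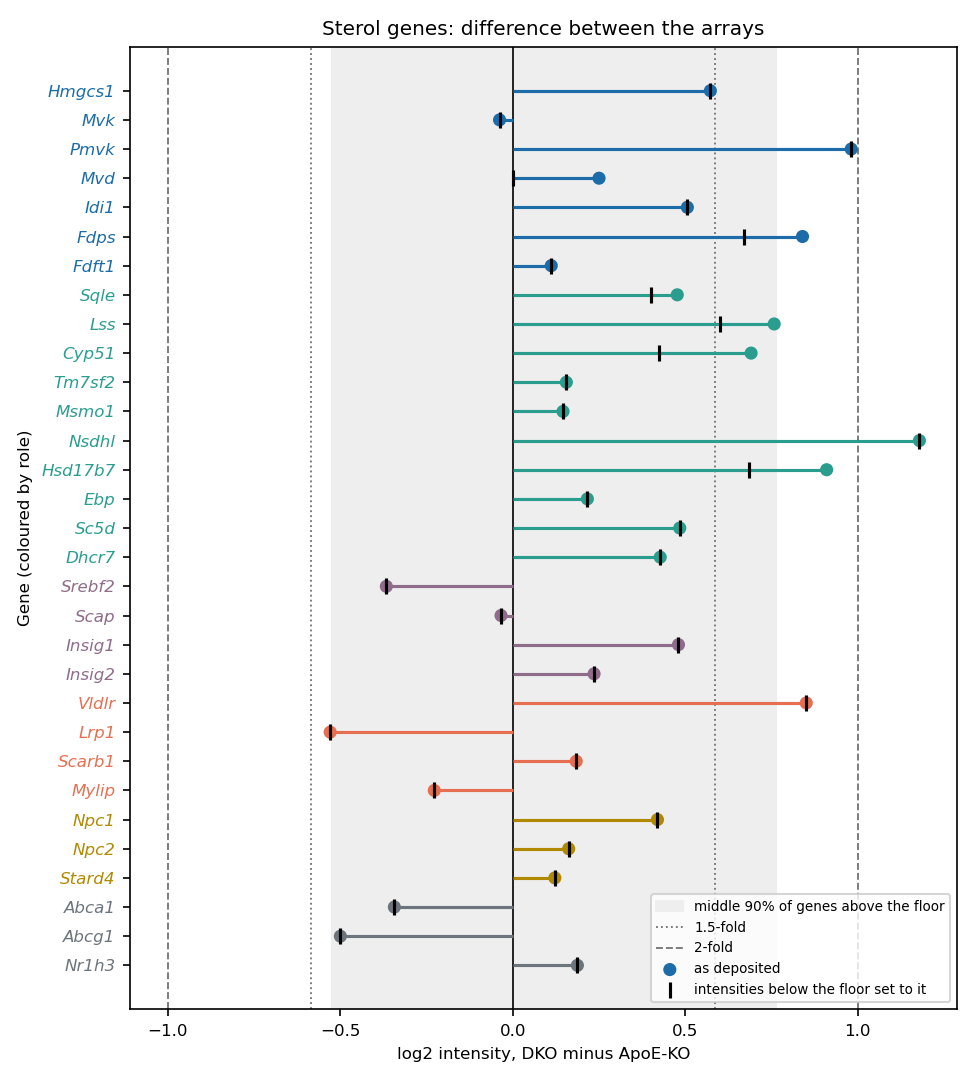
Difference of each measured sterol gene in log2 intensity, DKO minus ApoE-KO (points, coloured by role), with black ticks for the value after low intensities were raised to the floor, the middle 90% of genes above the floor shaded, and lines at 1.5-fold (dotted) and 2-fold (dashed). Nsdhl (1.18), Pmvk (0.98), Hsd17b7 (0.91), Vldlr (0.85) and Fdps (0.84) lie to the right of the shaded range, and Lrp1 (-0.53) lies at its left edge.

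Promoters of the listed genes were also read for shared letters. A match uses the sequence alone, but the motifs were chosen with earlier results of these data known. RefSeq windows (GRCm38.p6) of 250 bases before to 50 after the start were held for 27 of the 34 genes, 15 of them in synthesis, and were lacking for Fdps, Fdft1, Sqle, Scarb1, Npc1, Stard4 and Abcg1. A gene was counted when any of its windows held the letters on either strand, and different motifs may overlap. CCAAT, the box read by NF-Y, a factor that works beside SREBP at many sterol genes, was held by 14 of the 15 synthesis genes (93.3%) and by 7 of the 12 others (58.3%), against 41.6% of 7934 genes above the floor and 41.1% of all 27025 genes in the table. The synthesis gene without it was Acat2, which had no array value. GGGCGG, a box read by Sp1, was held by 14 of 15 synthesis genes and 10 of 12 others, but also by 70.4% of genes above the floor. CACGTG, the E-box, was held by 3 of 15 and 3 of 12, against 12.1%. TCACNCCAC, the core of the classical sterol regulatory element, was held by Hmgcs1 alone among the 27 (1.36% of genes above the floor), and the shorter CACNCCAC by Hmgcs1, Acat2 and Insig1 (7.57%). The spaced direct repeat of LXR, searched as exact letters, was found in 0 of the 27, and in 4 genes of the whole table. These matches describe letters and are not measured binding sites.

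The 150 bases before the start are printed for the 5 synthesis genes past 1.5-fold that had a window and for Hmgcs1, the holder of TCACNCCAC. Srebf2 and Lrp1 follow as genes that were lower. Capitals mark CCAAT, which reads ATTGG when it lies on the other strand, and TCACNCCAC. For Pmvk, which has 2 windows, the one with more such boxes is shown. Each is written 5′ to 3′ on the strand of its gene.
Nsdhl (chrX:72918371-72918520, plus strand): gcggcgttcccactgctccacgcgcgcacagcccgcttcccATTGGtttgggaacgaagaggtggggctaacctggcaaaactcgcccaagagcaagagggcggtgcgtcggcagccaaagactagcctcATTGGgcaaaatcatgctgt
Pmvk (chr3:89454391-89454540, plus strand): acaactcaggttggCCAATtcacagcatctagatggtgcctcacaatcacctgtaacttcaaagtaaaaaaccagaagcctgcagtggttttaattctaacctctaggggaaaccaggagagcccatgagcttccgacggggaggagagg
Hsd17b7 (chr1:169969206-169969355, minus strand): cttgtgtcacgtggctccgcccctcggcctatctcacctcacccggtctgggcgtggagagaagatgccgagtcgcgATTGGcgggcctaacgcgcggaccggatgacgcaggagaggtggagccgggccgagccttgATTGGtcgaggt
Lss (chr10:76531455-76531604, plus strand): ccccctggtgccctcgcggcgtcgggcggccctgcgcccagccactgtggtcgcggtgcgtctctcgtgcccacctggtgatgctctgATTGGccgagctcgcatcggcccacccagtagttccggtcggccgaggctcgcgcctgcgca
Cyp51 (chr5:4104698-4104847, minus strand): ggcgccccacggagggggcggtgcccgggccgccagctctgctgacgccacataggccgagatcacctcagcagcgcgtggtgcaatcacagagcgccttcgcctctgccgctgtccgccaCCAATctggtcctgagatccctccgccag
Hmgcs1 (chr13:119690201-119690350, plus strand): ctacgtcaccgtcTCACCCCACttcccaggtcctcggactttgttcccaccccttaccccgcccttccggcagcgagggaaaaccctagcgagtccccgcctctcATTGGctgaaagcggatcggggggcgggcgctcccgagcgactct
Srebf2 (chr15:82147119-82147268, plus strand): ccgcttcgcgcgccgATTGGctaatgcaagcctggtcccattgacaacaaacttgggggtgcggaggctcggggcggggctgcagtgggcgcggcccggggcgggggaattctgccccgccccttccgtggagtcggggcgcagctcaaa
Lrp1 (chr10:127621149-127621298, minus strand): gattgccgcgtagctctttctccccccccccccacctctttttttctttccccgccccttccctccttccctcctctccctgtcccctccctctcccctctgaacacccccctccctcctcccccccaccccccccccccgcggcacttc
Nsdhl and Hsd17b7, the neighbouring enzymes with the largest differences of the second segment, each hold 2 CCAAT boxes here, both on the opposite strand. Srebf2, which was lower at -0.37, also holds 1, so the box was not limited to genes that were higher. In its whole window Mvk, at -0.04, held more boxes than Nsdhl or Hsd17b7, at bases -173, -120, -67, -50 and -14 from the start. Mylip, lower at -0.23, held boxes at -190, -108 and -67. More boxes thus did not go with a larger difference in these genes. The printed stretch of Lrp1 has none and is mostly pyrimidines.

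The SREBP2 control genes did not move as a block. Insig1, the retention protein whose gene SREBP itself switches on, read 6502 and 4662 (0.48, or 1.39-fold). Insig2, its paralog that is less dependent on SREBP, read 1029.5 and 874 (0.24). Srebf2, the transcription factor gene, was lower with 645 and 831 (-0.37, or 1.29-fold). A probe set that names Srebf2 among several genes was left out and read level, at 646.7 and 645.7. Scap, the escort, read 524 and 536 (-0.03), a sign that turned under median centring of the arrays (0.0035). The transcript of the regulator was therefore lower where most of its known targets were higher. Cleavage of SREBP2 protein was not measured.

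Among the genes of lipoprotein uptake, the receptors Vldlr and Lrp1 lay at opposite ends. Vldlr, a receptor for triglyceride-rich lipoproteins that fat and muscle express and that binds ApoE, read 2121 and 1176, 1.80-fold higher (0.85). Lrp1, the large endocytic receptor for remnants and many other ligands, which also binds ApoE, read 2013 and 2905, 1.44-fold lower (-0.53). It had the lowest difference of the 31 genes and passed 1.5-fold under quantile normalization (-0.64). Scarb1, the receptor that exchanges cholesterol ester with high-density lipoprotein, read 1760 and 1550 (0.18). Mylip, the LXR-induced ubiquitin ligase that sends VLDLR and related receptors to degradation, read 1143.5 and 1339 (-0.23). With 2 genes on each side of 0, the median of -0.02 has no firm sign, as it was 0.02 under median centring.

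Genes of sterol movement inside the cell were slightly higher. Npc1, the membrane protein that releases cholesterol from lysosomes, read 978 and 731 (0.42). Its soluble partner Npc2 read 1551 and 1387 (0.16), a smaller difference than that of Npc1. Stard4, a soluble sterol carrier that SREBP2 controls, read 235 and 216 (0.12), close to the floor. All 3 measured genes of this role were higher and 0 reached 1.5-fold.

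Both efflux pumps were lower in the array labelled DKO. Abcg1, which passes cholesterol to high-density lipoprotein, read 886 and 1253, 1.41-fold lower (-0.50). Abca1, which loads lipid-poor apolipoproteins, ApoE among them, read 1640 and 2080 (-0.34, or 1.27-fold). Nr1h3, which encodes LXR alpha, read 599 and 526 (0.19), so the receptor gene and the pump genes differed in sign. The LXR-induced genes Abca1, Abcg1 and Mylip were thus all lower, each by less than 1.5-fold.

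**Figure D3:**
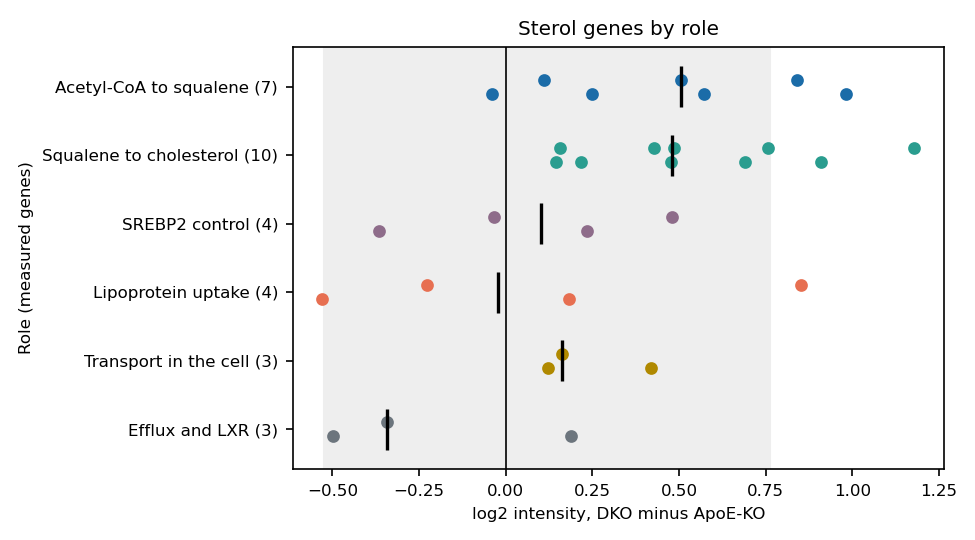
Differences in log2 intensity, DKO minus ApoE-KO, of the measured sterol genes grouped by role, with the number of genes in brackets, the group median as a black line and the middle 90% of genes above the floor shaded; points are offset vertically for sight only. The 2 synthesis segments have medians of 0.51 and 0.48, and the efflux group of 3 genes has a median of -0.34.

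Macrophages and stromal cells also express Lrp1, Abca1 and Abcg1, and their markers were lower in the same array. Of 12 macrophage markers, 11 were lower, with differences from -0.72 to 0.04, a median of -0.46 and summed intensities of 11431 against 16056. All 8 measured fibroblast and progenitor markers were lower, with a median of -0.55 and sums of 15573 against 22807, and all 8 measured B cell markers were lower, with a median of -1.09 and sums of 3222 against 6533. Of these markers, Cd14 of macrophages was the 1 that read below the floor, on both arrays. The pumps and Lrp1, between -0.53 and -0.34, lay within the range of the macrophage markers. In bulk tissue, fewer cells of a type and less RNA per cell cannot be told apart, and the part of these cells in the values of Lrp1, Abca1 and Abcg1 was not tested. Endothelial markers had a median of 0.07, and mature adipocyte markers one of 0.05. All 7 measured brown and beige adipocyte markers were at least 2-fold higher (2.79% of all genes on or above the floor were). Their median was 2.90, in the same direction as the synthesis genes, and their sums were 16281 against 2702. Among them Elovl3 and Dio2 read below the floor on the array labelled ApoE-KO, at 67.2 and 121, and the part of this list was likewise not tested. Relative to the adipocyte markers, the synthesis medians were 0.46 and 0.43.

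Other genes of the pathway, 50 measured of 55 listed, had a median of 0.06, with 31 higher and 19 lower. Of the 50, 8 lay below the floor. The other 42 were 27 higher and 15 lower with the same median, and with low intensities raised to the floor the median of the 50 was 0.0032. On or above the floor, 4 of the 42 were at least 1.5-fold higher (7.57% of all genes there) and 1 lower (3.73%). Among 10 measured helpers and side branches of synthesis, 8 were higher (48.2% of all genes on or above the floor), with a median of 0.34. Cyb5a (0.00034) and Dhdds (0.0023), counted as higher, were level. Cyb5b, a cytochrome b5 of the outer mitochondrial membrane, read 3047 and 1707 (0.84), and Acat1, the mitochondrial thiolase of ketone and isoleucine metabolism, read 3642 and 2105 (0.79). Lbr, the lamin B receptor, which has sterol reductase activity like TM7SF2, was lower with 536 and 907 (-0.76). Tm7sf2, the other sterol reductase gene, stood at 0.16, but with 233 and 209 it lay close to the floor, so its sign is weak.

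The machinery that cleaves SREBPs or degrades sterol enzymes was nearly level. Its 8 measured genes lay between -0.15 and 0.24, and 0 reached 1.5-fold. They include Mbtps1, the protease of the first SREBP cut, at -0.15 and Srebf1, which encodes the fatty acid-directed SREBP1, at -0.02. Among 8 further receptors, the differences ran from -0.39 to 0.20, with 0 past 1.5-fold. The low end is Msr1, a macrophage scavenger receptor that read below the floor on both arrays, as did 2 more, and the 5 on or above the floor ran from -0.11 to 0.20. Among 13 other carriers and ester hydrolases, Lipa, the lysosomal acid lipase that frees cholesterol for NPC2 and NPC1, passed 1.5-fold with 1305 and 825 (0.66). Lpcat3, a phospholipid acyltransferase and known LXR target, was the 1 of 11 further efflux and LXR genes past 1.5-fold, with 1980 and 1044 (0.92). It stood apart in sign from the LXR-induced genes Abca1, Abcg1 and Mylip. Of the 9 further efflux and LXR genes on or above the floor, 5 were higher and 4 lower. The lowest was Pltp, with 4554 and 5578 (-0.29).

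**Figure D4:**
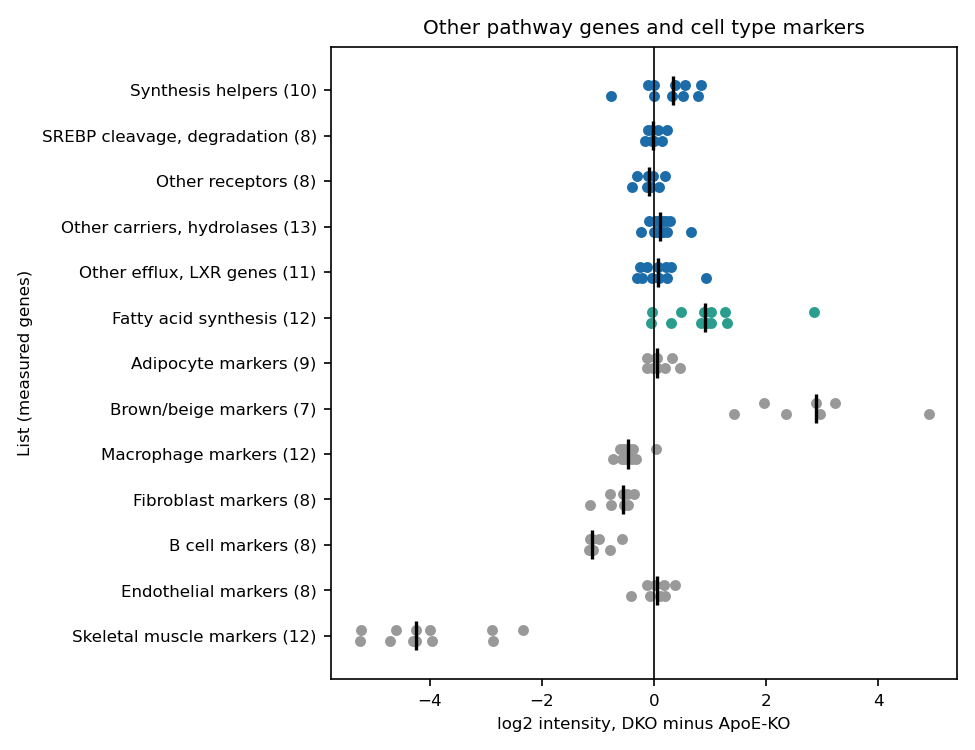
Differences in log2 intensity, DKO minus ApoE-KO, of other sterol pathway genes (blue), fatty acid synthesis genes (green) and cell type markers (grey), with the number of measured genes in brackets and the list median as a black line; points are offset vertically for sight only. Skeletal muscle markers (median -4.25) and brown and beige markers (2.90) span far more than the sterol pathway lists.

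Fatty acid synthesis, the neighbouring lipid pathway that uses the same cytosolic acetyl-CoA, had larger differences, with a median of 0.92 over 12 genes. At least 1.5-fold higher were 8 (7.57% of all genes on or above the floor), and at least 2-fold 5 (2.79%). Elovl6 (2.85), Acacb (1.30), Acly (1.27) and Thrsp (1.03) led the list, while Scd1 (-0.04) and Srebf1 (-0.02) were level. The difference between the pathways was not tested, as 1 array per group allows no test.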

How the data were processed

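Gene expression was measured on 2 Affymetrix arrays, 1 per genotype, each with Trizol-extracted RNA pooled from 3 mice, per the labels' protocols and the series' design text. The authors deposited 1 linear intensity per probe set and array, from 3.55 to 23635.7. The sources used here do not say how arrays were scanned, corrected, summarised and scaled. No detection call comes with the intensities, so low values could not be told from background.

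Of 35557 probe sets, 21789 had 1 symbol in the platform annotation, 1621 with several were dropped, and 12147 had none. By Entrez identifier, 21698 matched a RefSeq gene (GRCm38.p6), and 0 symbols changed. The probe set of highest mean over the arrays stood for each of 999 genes that had more than 1. Log2 values took no pseudocount. Counts used 1.5-fold and 2-fold, without and with a floor at percentile 50 of mean log2 intensity. The members, lists and motifs were chosen with earlier results of these data known, and the letters CACNCCAC and the promoter background of genes above the floor were added after seeing the data. All measured members are named, and from the other pathway and fatty acid synthesis lists those past 1.5-fold, up to 4 a list by size. Also named are Ucp1, Apoe and, after their values were seen, Mbtps1, Srebf1, Msr1, Pltp, Cyb5a, Dhdds, Scd1 and the markers Cd14, Elovl3 and Dio2. Other cell type markers are given by list.

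Alternatives were quantile normalization, median centring, loess (span 0.4), an offset of 50, the mean of probe sets, low intensities set to the floor, no floor or a floor at percentile 75, members above the floor only, and the mean for the median. The calculation was tested on simulated data. Python 3.11.15, pandas 2.3.3 and statsmodels 0.14.6 were used. The comparison of paralog proteins that had been planned was not run, since protein sequences were not used here.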

Additional observations from a re-analysis of the deposited data

How the results depend on the processing

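The number of arrays limits precision, and no setting replaces replicates or allows an array to be left out. No paired analysis was possible because each group has 1 array. Of the 31 measured genes, 30 kept their sign under every scaling, offset, probe set and floor setting run for them (Mvd came to 0 at the floor), and Scap changed sign. A shift of over 0.1 on the log2 scale counted as a move. The 7 genes at least 1.5-fold higher became 2 with the floor at percentile 75, which leaves fewer genes by construction, 8 under median centring and under loess, where Hmgcs1 passed (0.61 and 0.59), and 6 with the offset of 50 (Cyp51 at 0.56) and with low intensities set to the floor (Cyp51 at 0.43). The 0 genes at least 1.5-fold lower became 1 (Lrp1) under quantile normalization. The 1 gene at least 2-fold higher became 2 under median centring and under loess, Pmvk being the second. The median of the efflux group, -0.34, was -0.22 as the mean of its 3 genes. The median of all 31 genes, 0.24, lay between 0.19 and 0.30 over 9 settings, 1 of them, the differences relative to the adipocyte markers, chosen after seeing the data. The other settings moved the median of all named genes by at most 0.04, and that relative to the adipocyte markers by -0.05.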
